A study of Mus musculus with 12 samples.

Results

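The 10 genes described here encode proteins of nuclear speckles, or of the transcription and splicing machinery linked to them, and were followed through mouse liver. They were Rsrp1, Pnisr, Ccnl1, Ccnl2, Luc7l2, Luc7l3, Son, Srrm2, Paxbp1 and Ogt, taken by name from the deposited expression table, in which they are 10 of 57010 genes. The set was selected on earlier results of these same libraries, that is with the difference in TPM between the groups known. The difference between selenium and control livers is therefore given for them as a description, without p-values. The libraries came from 12 male wild-type C57BL/6J mice on a normal diet, 1 library per mouse. In the selenium group, 6 mice received selenium-enriched Aspergillus oryzae A02, a filamentous food mould, by daily gavage at 0.5 mg of selenium per kg in saline. The control group had 6 mice and is labelled as having no treatment, so that whether these mice were gavaged with saline is not stated. Mice were 6 weeks old at the start. The design text gives 8 weeks of feeding. The sample descriptions speak of 14 weeks, which may be the age at sampling. The fungus and its selenium were given together and cannot be told apart, and the libraries stand for 6 of the 10 mice per group that the protocol describes.

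Nuclear speckles are bodies in the nucleus, next to sites of active transcription, in which splicing factors collect and are modified. Many speckle proteins carry stretches of alternating arginine and serine, the RS domains, whose phosphorylation by kinases such as those of the CLK family moves them between speckles and transcripts. The large proteins Son and Srrm2 form the scaffold of the speckle. Cyclins L1 and L2, the products of Ccnl1 and Ccnl2, are themselves RS-domain proteins and partner the CDK11 kinases, which link transcription to splicing. Luc7l2 and Luc7l3 are relatives of the yeast U1 snRNP subunit Luc7, which helps U1 recognise the 5' end of an intron. Some transcripts of this class, that of Ogt among them, are known to be kept partly in the nucleus with an intron retained.

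Promoter sequences were read for the genes with the lowest selenium-to-control ratios that had one and for both cyclin L genes, to show what lies at the starts of genes of this set. RefSeq promoters of build GRCm38.p6, windows of 300 bases over the start of each gene, were matched for 9 of the 10 genes, Pnisr excepted. Motifs that occur at the start of many housekeeping genes, and the E-box of the circadian clock, were searched on both strands after the expression values had been seen. The capitals below mark GCGCATGC or its reverse complement GCATGCGC, the core bound by NRF1. They also mark TGACGT or ACGTCA, a core of the cyclic AMP response element, and CCGGAAG or CTTCCGG, an ETS factor core. The windows are chr4:134923375-134923674 on the plus strand for Rsrp1, chr3:65958200-65958499 on the minus strand for Ccnl1, chr4:155812239-155812538 on the plus strand for Ccnl2 and chr16:91044330-91044629 on the minus strand for Paxbp1. Each is printed 5' to 3' on the strand of its gene.
Rsrp1: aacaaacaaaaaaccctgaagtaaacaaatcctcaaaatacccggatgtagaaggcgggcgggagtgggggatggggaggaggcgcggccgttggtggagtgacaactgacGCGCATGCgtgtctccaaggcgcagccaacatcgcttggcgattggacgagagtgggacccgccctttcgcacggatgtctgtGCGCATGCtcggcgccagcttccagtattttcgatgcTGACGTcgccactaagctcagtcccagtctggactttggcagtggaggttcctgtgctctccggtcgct
Ccnl1: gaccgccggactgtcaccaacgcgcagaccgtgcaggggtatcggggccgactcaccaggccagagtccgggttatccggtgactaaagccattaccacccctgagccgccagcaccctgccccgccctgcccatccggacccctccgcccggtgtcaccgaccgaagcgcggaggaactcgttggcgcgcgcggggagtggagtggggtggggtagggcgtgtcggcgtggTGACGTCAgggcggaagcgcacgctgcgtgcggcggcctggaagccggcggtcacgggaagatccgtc
Ccnl2: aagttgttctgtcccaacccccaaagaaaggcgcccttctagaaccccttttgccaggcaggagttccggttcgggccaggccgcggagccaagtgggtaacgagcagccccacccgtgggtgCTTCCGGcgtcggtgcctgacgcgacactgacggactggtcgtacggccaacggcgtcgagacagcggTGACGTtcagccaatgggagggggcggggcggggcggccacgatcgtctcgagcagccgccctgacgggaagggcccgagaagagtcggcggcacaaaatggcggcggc
Paxbp1: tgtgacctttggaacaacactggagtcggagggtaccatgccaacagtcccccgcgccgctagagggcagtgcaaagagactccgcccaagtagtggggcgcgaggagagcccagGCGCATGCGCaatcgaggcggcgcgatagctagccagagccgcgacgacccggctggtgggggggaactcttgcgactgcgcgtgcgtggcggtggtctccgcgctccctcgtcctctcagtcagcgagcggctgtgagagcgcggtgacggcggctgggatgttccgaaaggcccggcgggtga

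Rsrp1 held the NRF1 core at 2 separate places and 1 response element. Paxbp1 held the NRF1 core as 1 palindromic stretch of both overlapping strands. Ccnl1 likewise held the response element as 1 palindromic stretch. Ccnl2 held 1 response element and 1 ETS core. Over the 9 genes with a promoter, the NRF1 core was present in 3 (Rsrp1, Paxbp1 and Ogt), against 2.71% of all 32851 promoters and 6.25% of the 7630 genes tested for expression that had one. The response element was present in 4 (Rsrp1, Ccnl1, Ccnl2 and Son), against 7.51% and 13.8%, and the ETS core in Ccnl2 alone, against 8.86% and 22.1%. The E-box CACGTG was found in none of these 9 genes' windows, against 7.15% and 12.2%. These are matches of letters and not sites of binding.

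Expression was deposited as TPM, a measure of transcript abundance that divides by transcript length and scales every library to the same total. Read depth cannot be had from it, so counting error is unknown, and genes may be compared by level within a library. Of all genes, 9980 had at least 1 TPM in at least 6 of the 12 libraries, and all 10 speckle genes passed with at least 1.06 TPM in every library. Differences below are selenium minus control on log2(TPM + 1), a scale that shrinks differences of weakly expressed genes, with the standard error (SE) from limma. A gene counts as called at a Benjamini-Hochberg adjusted p under 0.05 over the 9980 genes. The tissue is labelled liver and the cell type hepatocyte, yet markers of other liver cells were present. A mean of at least 1 TPM was reached by 10 of 10 hepatocyte markers, 9 of 9 Kupffer cell, 7 of 8 sinusoidal endothelial, 6 of 8 stellate cell, 2 of 6 cholangiocyte, 5 of 6 erythroid and 0 of 7 lymphocyte markers, and no marker was at 0 in all libraries. The values are of bulk RNA, in which fewer cells of a type and less RNA per cell cannot be told apart.

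All 10 genes had a lower mean TPM in selenium livers than in control livers. The ratio of the means, selenium over control, lay between 0.399 for Pnisr and 0.836 for Srrm2. Their median log2 difference was -0.80, against -0.03 over all genes tested. In 4 of the 10, every selenium library lay below every control library, which held for 1.47% of the 9980 genes, while 0.16% lay the other way round. Calls were made for 2 of the 10, Rsrp1 and Pnisr, where 0.311% of all genes were called lower. Since the genes were picked with this contrast known, nothing is read from these counts. They also rested on single mice: 4 were called without control 6, 1 without control 5, and 0 without any 1 of control 1, 2 and 4 or selenium 1 to 5. Summed over the 10 genes, the level ran from 91.1 to 146 TPM in selenium livers and from 172 to 289 TPM in control livers, with no overlap. Nothing is read from this sum either, in which Rsrp1, the most abundant gene, weighs most.

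**Figure D1:**
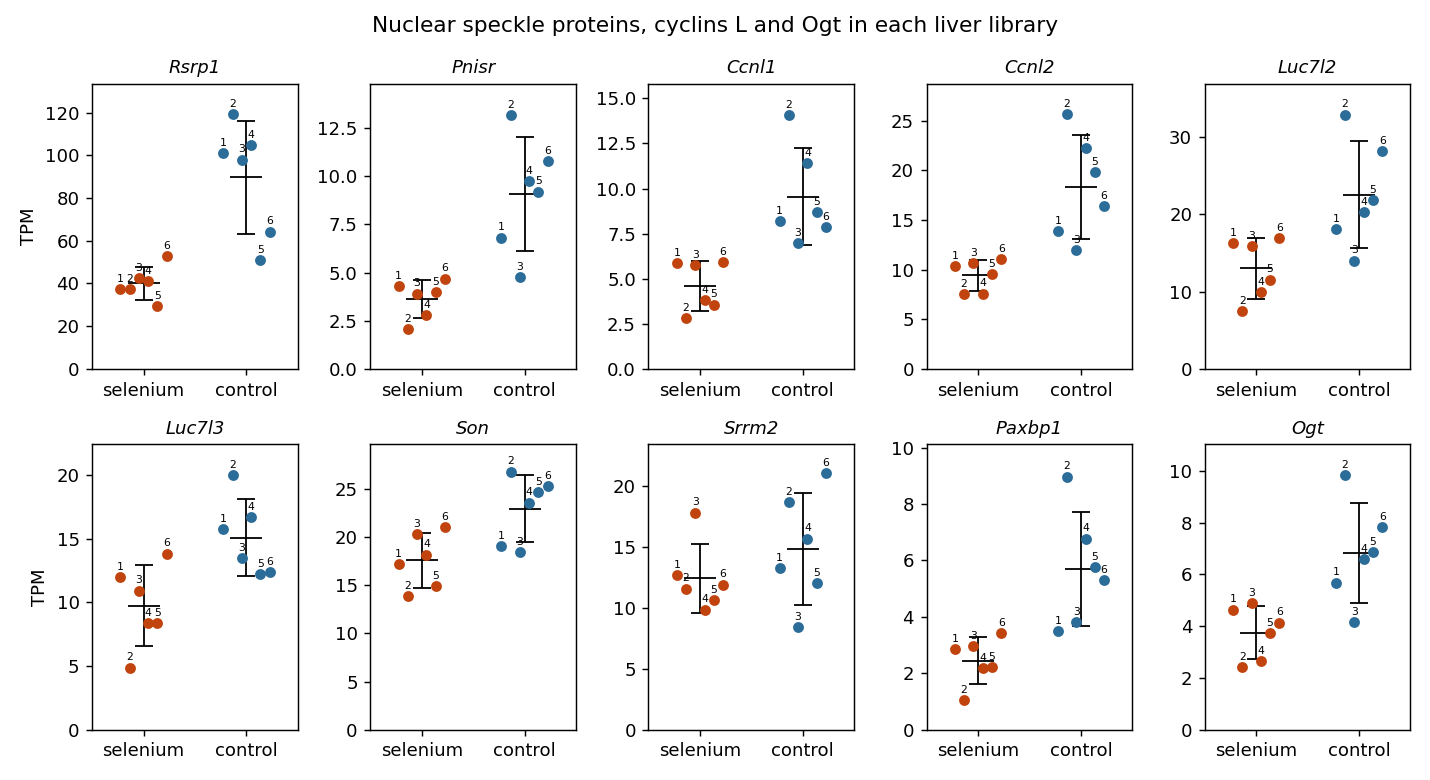
TPM of each of the 10 genes in each library on a linear axis from 0, selenium livers left of control livers in each panel, with numbered points for libraries and bars for the mean ± SD (n = 6). The groups are apart for Pnisr, Ccnl1, Ccnl2 and Paxbp1, touch through 1 library on each side for Rsrp1, and overlap most for Srrm2.

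On log2(TPM + 1), the RS-rich proteins Rsrp1 and Pnisr had the most negative differences of the set. By the ratio of means, selenium over control, Pnisr (0.399) was followed by Paxbp1 (0.430) and then Rsrp1 (0.447). Rsrp1, named for the arginines and serines of its product (ENSMUSG00000037266), was the most abundant of the set. Its level ran from 29.5 TPM through a median of 39.2 to 52.7 TPM in selenium livers and from 50.8 through 99.5 to 119 TPM in control livers. The only overlap was between selenium 6 and control 5. Rsrp1 averaged 40.1 ± 7.63 TPM in selenium livers and 89.7 ± 26.3 TPM in control livers (SD, n = 6 each), a log2 difference of -1.10 (SE 0.20). Control 5 and control 6, at 50.8 and 64.3 TPM, stood below the other 4 controls, of which the lowest was control 3 with 98.03 TPM. Pnisr, whose product interacts with the splicing factor pinin (ENSMUSG00000028248), ranged from 2.06 through 3.95 to 4.69 TPM in selenium livers and from 4.78 through 9.48 to 13.2 TPM in control livers. The groups did not overlap, although the highest selenium liver, selenium 6, lay close to the lowest control liver, control 3. Pnisr averaged 3.62 ± 0.988 TPM in selenium livers and 9.08 ± 2.95 TPM in control livers, a log2 difference of -1.10 (SE 0.21).

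Both cyclin L genes had about the same difference, and neither group overlapped the other for either gene. Ccnl1 (ENSMUSG00000027829) ranged from 2.81 through 4.79 to 5.90 TPM in selenium livers and from 6.98 through 8.46 to 14.1 TPM in control livers. Its log2 difference was -0.91 (SE 0.19), with means of 4.62 ± 1.38 TPM in selenium livers and 9.55 ± 2.68 TPM in control livers. Ccnl2 (ENSMUSG00000029068) ranged from 7.51 through 9.96 to 11.03 TPM in selenium livers and from 11.99 through 18.1 to 25.7 TPM in control livers. It averaged 9.46 ± 1.56 TPM in selenium livers and 18.3 ± 5.21 TPM in control livers, a log2 difference of -0.86 (SE 0.17). Ccnl2 was the more abundant cyclin in every library. The ratio Ccnl2 to Ccnl1 was 2.14 ± 0.425 in selenium livers (range 1.77 to 2.69) and 1.92 ± 0.226 in control livers (range 1.69 to 2.27), so the balance of the paralogs overlapped between the groups while both levels were lower. Their kinase partner Cdk11b averaged 9.58 ± 0.665 TPM in selenium livers and 9.74 ± 2.01 TPM in control livers. Its log2 difference was -0.01 with a 95% interval of -0.26 to 0.25 (limma adjusted p = 0.987), and its sign turned under 7 alternatives, 4 of which left out 1 mouse. Whether Cdk11b differed unequally from the cyclin L genes, which were picked with this contrast known, was not tested.

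The Luc7-like genes overlapped between groups. Luc7l2 (ENSMUSG00000029823) ranged from 7.52 through 13.8 to 16.9 TPM in selenium livers and from 14.0 through 21.1 to 32.9 TPM in control livers. Only control 3, the lowest control, lay inside the selenium range. The means were 13.0 ± 3.90 TPM in selenium livers and 22.6 ± 6.90 TPM in control livers, a log2 difference of -0.75 (SE 0.22). Luc7l3 (ENSMUSG00000020863) ranged from 4.87 through 9.66 to 13.8 TPM in selenium livers and from 12.2 through 14.6 to 20 TPM in control livers. Only selenium 6 reached into the control range. Its means were 9.73 ± 3.19 TPM in selenium livers and 15.1 ± 3.00 TPM in control livers, a log2 difference of -0.62 (SE 0.20). With 2 clock components in the model it was -0.34, and without control 2 and selenium 2 it was -0.38. The third paralog, Luc7l, averaged 9.09 ± 2.60 TPM in selenium livers and 8.67 ± 1.28 TPM in control livers, with a log2 difference of 0.03 and a 95% interval of -0.33 to 0.39 (limma adjusted p = 0.948), a sign that turned under 7 alternatives, 4 of which left out 1 mouse. The ratio Luc7l to Luc7l3 was 1.11 ± 0.783 in selenium livers and 0.583 ± 0.0771 in control livers. It reached 2.65 in selenium 2 and lay between 0.544 and 1.13 in the other selenium livers, against 0.495 to 0.712 in control livers. Whether Luc7l differed unequally from Luc7l2 and Luc7l3 was not tested.

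The scaffold genes differed least. Son (ENSMUSG00000022961), which encodes a very large DNA- and RNA-binding RS protein, ranged from 13.9 through 17.7 to 21.02 TPM in selenium livers and from 18.4 through 24.1 to 26.8 TPM in control livers. The groups overlapped through selenium 3 and 6 and control 1 and 3. Son averaged 17.6 ± 2.85 TPM in selenium livers and 23.0 ± 3.45 TPM in control livers, a log2 difference of -0.37 (SE 0.13), and 10.8% of all tested genes had a lower one. Srrm2 (ENSMUSG00000039218), the other core scaffold protein, ranged from 9.86 through 11.7 to 17.8 TPM in selenium livers and from 8.42 through 14.5 to 21.1 TPM in control livers. No selenium library lay below the lowest control. Its means of 12.4 ± 2.83 TPM in selenium livers and 14.9 ± 4.60 TPM in control livers differed by less than the spread between control mice, and the log2 difference was -0.21 (SE 0.20). It was -0.35 without control 3, -0.14 without control 2, -0.10 without control 6, -0.12 without control 2 and selenium 2 and -0.42 with 2 clock components as covariates. Of all tested genes, 23.8% had a difference below -0.21.

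On log2(TPM + 1), Paxbp1 had a difference of about the size of the cyclins', and that of Ogt was smaller. With 0.1 added to TPM in place of 1, Paxbp1 was at -1.19, Ccnl1 at -1.05, Ccnl2 at -0.92 and Ogt at -0.85. Paxbp1 (ENSMUSG00000022974), which encodes a GC-rich-sequence factor that links PAX transcription factors to histone methylation, was the least abundant gene. It ranged from 1.06 through 2.54 to 3.42 TPM in selenium livers and from 3.49 through 5.53 to 8.97 TPM in control livers. The groups did not overlap, with selenium 6 and control 1 next to each other. Paxbp1 averaged 2.45 ± 0.829 TPM in selenium livers and 5.68 ± 2.02 TPM in control livers, a log2 difference of -0.94 (SE 0.21). Ogt (ENSMUSG00000034160), the single enzyme that adds O-linked N-acetylglucosamine to nuclear and cytoplasmic proteins, ranged from 2.43 through 3.94 to 4.89 TPM in selenium livers and from 4.17 through 6.72 to 9.84 TPM in control livers. Only control 3 lay inside the selenium range. Its means were 3.75 ± 1.02 TPM in selenium livers and 6.83 ± 1.92 TPM in control livers, a log2 difference of -0.71 (SE 0.18). Oga, the enzyme that removes the same sugar, averaged 9.63 ± 2.60 TPM in selenium livers and 11.4 ± 1.12 TPM in control livers. Its log2 difference was -0.25 with a 95% interval of -0.58 to 0.07 (limma adjusted p = 0.404). Whether Ogt and Oga differed unequally was not tested.

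By level, Rsrp1 came first and Son next in both groups. In selenium livers Luc7l2, Srrm2, Luc7l3 and Ccnl2 followed with neighbouring means within their spread, then Ccnl1, Ogt and Pnisr within theirs, and Paxbp1 last. In control livers neighbouring means from Son through Luc7l2, Ccnl2 and Luc7l3 to Srrm2 lay within the larger standard deviation. The same held below them from Ccnl1 through Pnisr and Ogt to Paxbp1. Only neighbouring means were compared, so genes further apart in this order may differ beyond their spread. The gap between Rsrp1 and the next gene exceeded the larger standard deviation in both groups.

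**Figure D2:**
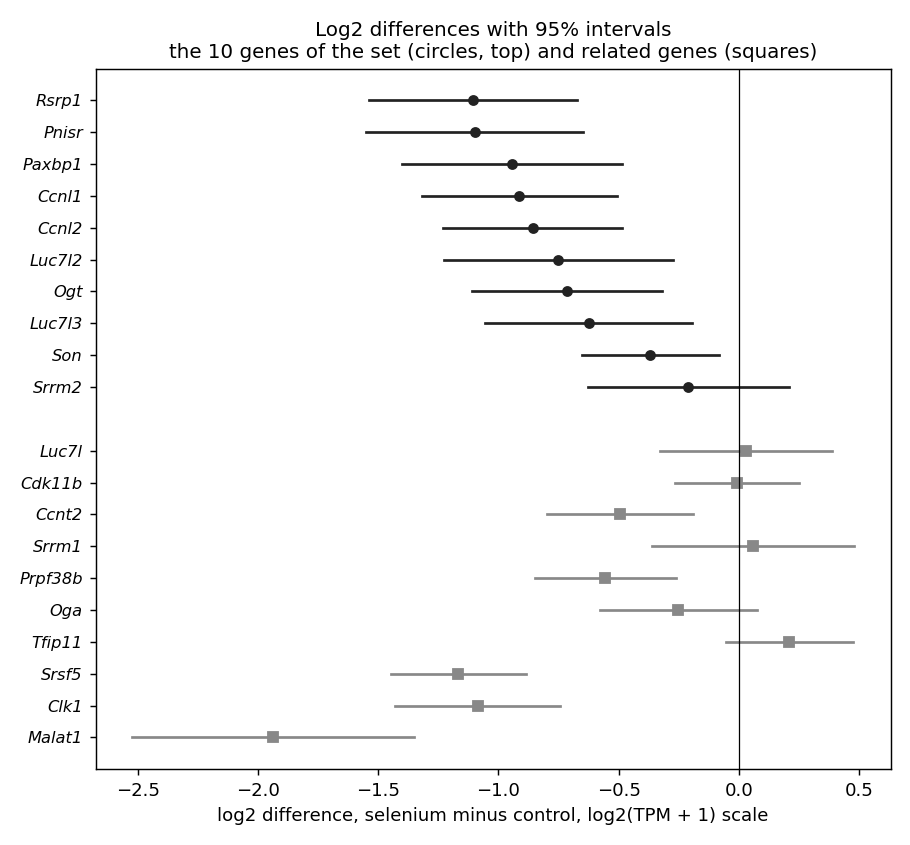
Log2 difference, selenium minus control, on log2(TPM + 1) with its 95% interval for the 10 genes (circles, top) and for named related genes (squares, below), with a line at 0. The 10 genes run from -1.10 for Rsrp1 to -0.21 for Srrm2, whereas Luc7l and Cdk11b sit near 0, with signs that turned under 7 alternatives each, 4 of them the loss of 1 mouse.

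The authors' deposited table gives its own log2 fold change per gene, made with DESeq2 per the submitters' processing notes, as control over selenium, and its sign is turned here. For Srrm2 the authors' deposited table had 0.15, opposite in sign to the -0.21 from TPM. For Son the authors' deposited table had -0.17, against -0.37 from TPM, and for Pnisr -1.29, against -1.10. All but Srrm2 were negative in both, from -1.29 for Pnisr to -0.17 for Son in the authors' deposited table. Over all tested genes, the values in the authors' deposited table were higher than the TPM estimates by a median of 0.08, with 5th and 95th percentiles of -0.21 and 0.30. The gap of 0.36 for Srrm2 lay outside that range, and the gaps of 0.20 for Son and -0.19 for Pnisr lay inside it. A lower Srrm2 level thus depends on the estimate used.

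**Figure D3:**
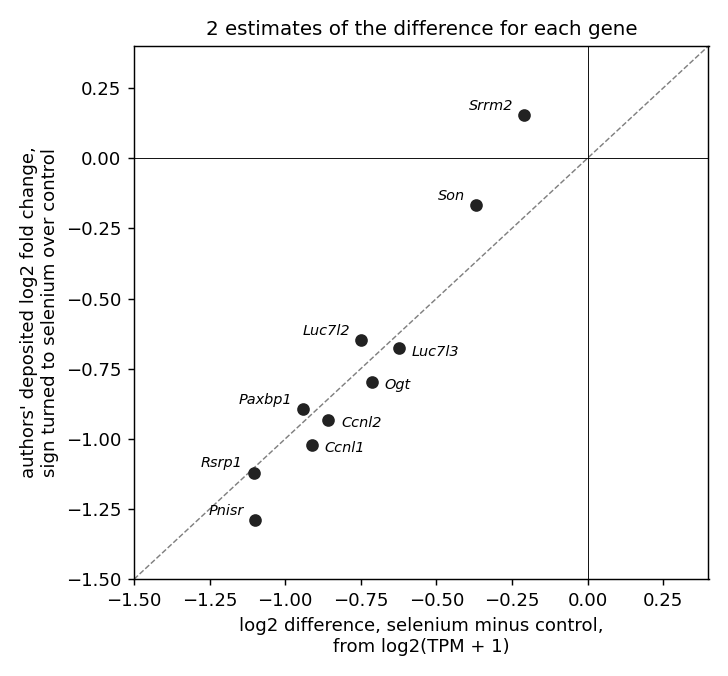
The log2 fold change in the authors' deposited table, with its sign turned to selenium over control, against the log2 difference from log2(TPM + 1), 1 point per gene, with the line of equality dashed. Most genes lie near the line, and Srrm2 lies above 0 on the vertical axis at 0.15 and below 0 on the horizontal axis at -0.21.

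Around their group means, the genes other than Rsrp1 varied together from mouse to mouse. Deviations of log2(TPM + 1) from the group mean, which do not use the contrast, were correlated over the 12 libraries of both groups together. No r was computed within 1 group alone. The median Pearson r over the 45 pairs of the 10 genes was 0.75. Without Rsrp1 it was 0.79 over 36 pairs, the lowest being 0.29 for Luc7l3 with Srrm2, and the highest was 0.96 for Luc7l2 with Ogt. Pairs of 1 of the 10 genes with any other tested gene had a median r of 0.05 and a 95th percentile of 0.62. Every gene in a library shares that library's RNA, scaling and depth, so these values describe the libraries and carry no p-value. Selenium 2 was lowest among selenium livers for 8 of the 10 genes and selenium 6 highest for 8. Control 2 was highest among control livers for 9 and control 3 lowest for 7. Without both selenium 2 and control 2, an alternative added after seeing the data, the median r over all pairs was 0.63 and the median log2 difference -0.60.

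**Figure D4:**
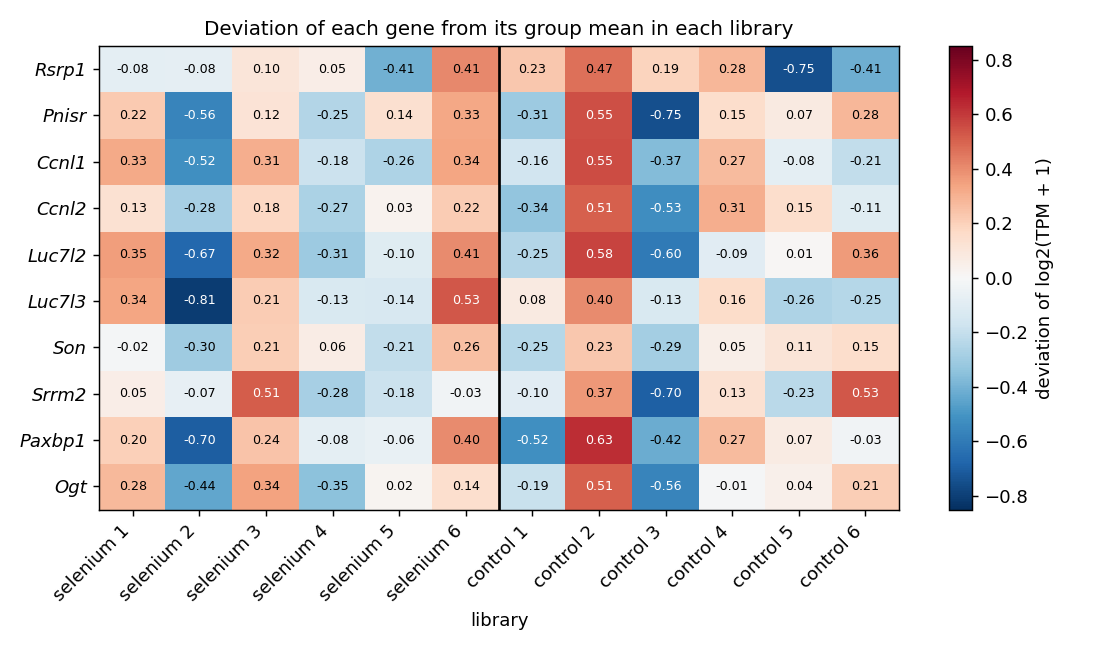
Deviation of log2(TPM + 1) from its group mean for each gene (rows) in each library (columns), selenium livers left of the black line and control livers right of it. Blue fills selenium 2 for all 10 genes and red fills control 2 for all 10. Rsrp1 is the lowest of the genes in control 5, at -0.75, and in control 6, at -0.41. Luc7l3 is next lowest in both, at -0.26 and -0.25, and Ccnl1 is below 0 in both.

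Rsrp1 stood apart from this shared variation. Its r with the other 9 genes had a median of 0.13 and ran from 0.01 with Pnisr to 0.57 with Luc7l3. Its lowest libraries were selenium 5 and selenium 1, at 29.5 and 37.2 TPM, and control 5 and control 6, at 50.8 and 64.3 TPM. These were the same 4 libraries in which Dbp, a clock-driven transcription factor gene with a strong daily rhythm in liver, was high. Dbp was at 31.5 TPM in selenium 1, 53.6 in selenium 5, 15.7 in control 5 and 28.5 in control 6, and between 0.72 and 1.44 TPM in the other 8 libraries. For Rsrp1, however, selenium 1 was only just below selenium 2, at 37.24 and 37.38 TPM. Control 5 and control 6 were also the lowest control livers for Luc7l3, at 12.22 and 12.38 TPM, while its lowest selenium liver was selenium 2. Among libraries low in Dbp, Rsrp1 lay between 37.4 and 52.7 TPM in 4 selenium livers and between 98.03 and 119 TPM in 4 control livers. These libraries were not matched for Nr1d1, another clock gene. Nr1d1 lay between 8.6 and 18.1 TPM in those 4 selenium livers and between 1.04 and 2.92 TPM in those 4 control livers. The log2 difference of Rsrp1 was -0.98 with the first principal component of the clock genes as a covariate and -0.82 with the first 2. In the libraries low in Dbp, the second component lay between -1.56 and -0.87 in selenium livers and between 0.02 and 1.37 in control livers. The time of sampling is not in the labels, and its part in the Rsrp1 values was not tested. The gene whose deviations were most like those of Rsrp1 was Wsb1, a substrate-recognition gene of a ubiquitin ligase, with an r of 0.95 over 12 libraries, looked up after the values were seen. Wsb1 lay between 2.32 and 8.68 TPM in selenium livers and between 5.86 and 19.4 TPM in control livers, with a log2 difference of -1.25 (limma adjusted p = 0.0810). Next by likeness came Zrsr1 and Tbk1 with r of 0.92, Ly6g2 with 0.91 and Trp53inp1 with 0.90. Their log2 differences were -0.16, -0.03, 0.03 and -1.09 in that order, and none was called.

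Outside the set, the genes most like the mean deviation of the 10 were taken from 5195 genes with a mean of at least 5 TPM. The 8 highest were Zc3h11a with r of 0.94, Hnrnpdl with 0.93, Bclaf1 and Prpf4b with 0.92, Srsf11 with 0.91, Rsrc2 with 0.90, and Sf3b1 and Lgals4 with 0.87, each over 12 libraries. All 8, picked by likeness to the set, had negative log2 differences, as had 5451 of all 9980 tested genes. Those of the 8 ran from -1.01 for Lgals4 to -0.33 for Sf3b1. None was called, with limma adjusted p between 0.0580 for Lgals4 and 0.250 for Sf3b1. At the other end stood Mrpl22 with r of -0.88, Gsta4 with -0.82 and Acy3 with -0.81.

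The shared variation ran along transcript length and base composition. Among 9844 tested genes matched to the GENCODE M21 annotation, those whose longest transcript was 1646 bases or shorter had a median r of -0.24 with the mean deviation of the 10 genes, and those of 4845 bases or longer 0.35. The genes with a GC content up to 43.6% had a median r of 0.35, and those of 55.02% or more -0.16. The speckle genes were themselves long and poor in GC, with a median longest transcript of 4399 bases, against 3026 over tested genes, and a median GC content of 45.1%, against 49.2%. Selenium 2, lowest among selenium livers for 8 of the 10 genes, had the steepest dependence on GC of all 12 libraries. Its Spearman correlation was 0.54 between GC content and a gene's deviation from its mean over all 12 libraries. The difference between the groups is part of that deviation. The other 11 libraries lay between -0.30 and 0.23. Selenium 6 and control 2, highest in their groups for most of the set, were at -0.30 and -0.16. Control 3, lowest among control livers for 7 of the genes, was at -0.09. Against transcript length, the same correlation was -0.25 in selenium 2, 0.21 in selenium 6, 0.01 in control 2 and -0.24 in control 3. The remaining libraries lay between -0.31 in selenium 4 and 0.34 in selenium 1. After a correction for GC content, added after seeing the data, the median log2 difference of the 10 genes was -0.71, Rsrp1 stayed at -1.10 and the median r between them was 0.76. After one for transcript length the median log2 difference was -0.81 and the median r 0.62.

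Annotated transcripts that keep an intron, or that are subject to nonsense-mediated decay, were frequent in the set. In GENCODE M21, 9 of the 10 genes had at least 1 retained-intron transcript, all but Pnisr, against 61.7% of 9218 protein-coding genes tested. A nonsense-mediated decay transcript was annotated for 8 genes, all but Rsrp1 and Ogt, against 30.1%, and both kinds for 7, against 24.4%. Ccnl1 had the most, with 8 retained-intron and 5 decay transcripts. Over all tested protein-coding genes, the median log2 difference was -0.03 in the 2253 with both kinds and -0.02 in the 3011 with neither. The gene-level values do not separate these transcripts from the coding ones, so nuclear or intron-retaining RNA and coding mRNA cannot be told apart.

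The partners of these genes were read from lists written from general knowledge, again with earlier results known. Called shares over all genes were 0.311% lower and 0.02% higher, and 11.4% were lower and 7.01% higher at an unadjusted p under 0.05. Of 16 tested SR proteins and CLK kinases, 10 were lower and none higher at an unadjusted p under 0.05. The median log2 difference was -0.40, and 3 genes were called lower and none higher. The 3 were Srsf5, which averaged 44.5 ± 6.27 TPM in selenium livers and 101 ± 15.9 TPM in control livers (limma adjusted p = 0.00331), and the kinases Clk1 and Clk4. Clk1 averaged 13.1 ± 2.51 TPM in selenium livers and 29.0 ± 6.44 TPM in control livers (limma adjusted p = 0.0113). Clk4 averaged 8.44 ± 1.78 TPM in selenium livers and 16.1 ± 3.25 TPM in control livers (limma adjusted p = 0.0365). Clk4 lost its call, at log2 differences of -0.90 to -0.78, when control 2, 4 or 5 or selenium 2, 3, 4 or 5 was left out, whereas Srsf5 and Clk1 were called in all 12 such fits. Clk1 was not called with no filter, with the replicate number as a block, with 2 clock components or without control 2 and selenium 2, where its log2 difference lay between -1.09 and -0.82.

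Of 33 other speckle and SR-related genes tested, none was called by limma, while 12 were lower and 1 higher at an unadjusted p under 0.05, with a median log2 difference of -0.23. The smallest p-values were those of Clasrp, an SR protein partner of CLK4, and Prpf38b, a spliceosomal factor. Clasrp averaged 0.997 ± 0.110 TPM in selenium livers and 1.96 ± 0.489 TPM in control livers (limma adjusted p = 0.0532). Prpf38b averaged 7.56 ± 1.55 TPM in selenium livers and 11.5 ± 1.61 TPM in control livers (limma adjusted p = 0.0778). Srrm1, which works with Srrm2 as a splicing coactivator, had a log2 difference of 0.06 with a 95% interval of -0.36 to 0.48 (limma adjusted p = 0.900), and its sign turned under 4 alternatives, 2 of which left out 1 mouse.

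Among 15 tested genes of the U1 snRNP with Luc7l, the median log2 difference was -0.19, and 2 were lower and 1 higher at an unadjusted p under 0.05. Prpf40b, a U1-associated factor, averaged 3.45 TPM in selenium livers and 5.55 TPM in control livers (limma adjusted p = 0.105). Snrpb, a core Sm protein, averaged 21.3 ± 3.81 TPM in selenium livers and 12.9 ± 4.67 TPM in control livers (limma adjusted p = 0.116). No gene of this list was called by limma, nor any of the transcription cyclins, the O-GlcNAc pathway or spliceosome disassembly. Among 13 transcription cyclins and their kinases the median was -0.02, with 3 lower and 1 higher at an unadjusted p under 0.05, and the lowest p-values were those of Ccnt2 (log2 difference -0.50, limma adjusted p = 0.112) and Ccnc (-0.40, limma adjusted p = 0.180). Neither cyclin L gene is on that list. Among 9 genes of the O-GlcNAc and hexosamine pathway the median was -0.03 and none passed an unadjusted p of 0.05 in either direction. Gfpt1, the first enzyme of the pathway, had a log2 difference of 0.33 (limma adjusted p = 0.357).

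Paxbp1's relatives in spliceosome disassembly had a median log2 difference of -0.10 over 5 tested genes, with Cwf19l2 alone lower at an unadjusted p under 0.05 (log2 difference -0.39, limma adjusted p = 0.158). Dhx15, the helicase of that step, had a log2 difference of 0.41 (limma adjusted p = 0.315), and its cofactor Tfip11 one of 0.21 (limma adjusted p = 0.386). Gcfc2, the paralog of Paxbp1, lay under the expression threshold with 0.525 TPM in selenium livers and 0.627 TPM in control livers. The 4 tested nuclear long noncoding RNAs had a median log2 difference of -1.26, and 4 were lower at an unadjusted p under 0.05. Of them 1 was called lower, the speckle RNA Malat1. It averaged 8.39 ± 2.38 TPM in selenium livers and 37.1 ± 16.5 TPM in control livers (limma adjusted p = 0.0113). Malat1 was not called under the same 4 alternatives as Clk1, with log2 differences of -2.03 to -1.68. Neat1, the backbone of paraspeckles, averaged 5.66 ± 2.44 TPM in selenium livers and 26.1 ± 19.4 TPM in control livers (limma adjusted p = 0.0615).

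The share of TPM from mitochondrial-encoded genes was 11.6 ± 1.97% in selenium livers and 17.3 ± 3.43% in control livers (two-sided exact permutation test, p = 0.00433, adjusted p = 0.0346 over 8 measures). With these genes removed and TPM rescaled, the median log2 difference of the 10 genes was -0.90, against a median of -0.11 over all genes. Summed markers of 7 cell types made up the other 7 measures, and none passed the adjusted threshold. Lymphocyte markers summed to 0.86 to 2.86 TPM in selenium livers and 2.16 to 3.91 TPM in control livers (exact permutation p = 0.0238, adjusted p = 0.0952). Stellate cell markers summed to 54.8 to 99.5 TPM in selenium livers and 72.1 to 134 TPM in control livers (exact permutation p = 0.0498, adjusted p = 0.133). Kupffer cell markers summed to 62.5 to 271 TPM in selenium livers and 69.0 to 151 TPM in control livers, with means of 157 ± 78.2 TPM in selenium livers and 102 ± 27.2 TPM in control livers (exact permutation p = 0.136). All 9 Kupffer cell markers had a positive log2 difference, with a median of 0.43, and none was called. Over all 9980 tested genes, 5451 had a negative one. The exact permutation p was 0.833 for hepatocyte markers, 0.203 for sinusoidal endothelial markers, 0.463 for cholangiocyte markers and 0.528 for erythroid markers. The part of cell makeup in the speckle genes' values was not tested.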

How the data were processed

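Liver RNA was sequenced from 12 mice, 6 selenium and 6 control, with 1 library per mouse by the titles. Per the labels' protocols, RNA was isolated with TRIzol and an RNeasy column and made into standard Illumina libraries. HISAT2 2.1.0, RSEM 1.2.8, DESeq2 and GRCm39 are named in the submitters' processing notes. Whether polyadenylated RNA was selected, and whether strand was used in counting, was not found in the labels or processing notes, so overlapping antisense transcripts cannot be told apart. The authors deposited TPM per gene and library, which carry no read depth, and the series and single-library tables were equal in 100% of 684120 values. The log2 fold changes quoted as the authors' are those of the deposited table, whose p-value columns were not used.

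Genes with at least 1 TPM in 6 or more libraries (9980) were tested on log2(TPM + 1) with limma 3.58.1 in R 4.3.3, with an intensity trend, no covariates and two-sided p-values, adjusted by Benjamini-Hochberg at 0.05. Standard errors and 95% intervals are limma's. Single measures had an exact permutation test over 924 labellings. The members and gene lists were chosen with earlier results of these data known. Genes were named as all 10 members, the called genes of each list or else the 2 with the smallest p, a set of partners, and the 8 genes most like the members. Same-numbered selenium and control mice were checked for correlated deviations and were treated as unpaired in the main fit. Alternatives covered the pseudocount, the filter, the scaling, mitochondrial genes, the trend, clock covariates and leaving out each library. Others were added after seeing the data: corrections for GC content and for transcript length, and leaving out control 2 and selenium 2. Promoter sequences are RefSeq's (GRCm38.p6), and transcript annotation is GENCODE M21 (GRCm38). The plots were drawn with matplotlib 3.10.9.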

Additional observations from a re-analysis of the deposited data

Results flagged for a closer look

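In groups of 6 libraries, a value was picked out when its gap to the nearest other library, divided by the range of the group, exceeded Dixon's critical value for 6 samples, which chance alone does in about 1 of 20 groups. This held for 7 of 100 groups examined and for 1 of the 20 groups of the speckle genes themselves. Srrm2 was at 17.82 TPM in selenium 3, against 9.86 to 12.71 TPM in the other selenium livers. Srrm1, its partner coactivator, was also high in selenium 3, at 9.99 TPM, against 4.32 to 6.31 TPM in the others. Prpf38b was at 8.47 TPM in control 1, against 11.37 to 12.91 TPM in the other control livers. Cdk11b was at 13.56 TPM in control 6, against 7.91 to 9.96 TPM. Cholangiocyte markers summed to 132.71 TPM in selenium 3, against 16.03 to 28.17 TPM in the other selenium livers, and to 269.43 TPM in control 5, against 25.14 to 37.2 TPM in the other control livers. Erythroid markers summed to 4270.54 TPM in control 6, against 403.9 to 1282.05 TPM in the other control livers.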

How the results depend on the processing

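All 10 speckle genes kept a negative log2 difference in each of the 257 alternative estimates made for them, none of which moved by more than the spread between replicates, although Srrm2 (-0.42 to -0.10) and Luc7l3 (-0.73 to -0.34) moved by more than 1.5 times. The number of genes called over the whole table, 33 (31 lower, 2 higher), was less stable, as were the 2 speckle genes and 4 list genes called. Genes called, speckle genes called and list genes called numbered 1, 0 and 1 with no filter on low values, and 191, 5 and 10 without mitochondrial-encoded genes. They numbered 12 (10 lower, 2 higher), 0 and 3 with quantile normalization, and 30 (24 lower, 6 higher), 1 and 4 with median-of-ratios scaling. With the first clock component they were 13, 1 and 3, and with the first 2 they were 3, 0 and 1. Correction for GC content gave 56 (43 lower, 13 higher), 3 and 4, correction for transcript length 49 (37 lower, 12 higher), 3 and 4, and leaving out control 2 and selenium 2 together 2, 0 and 1. Leaving out each library in turn gave 8 to 170 genes (8 without control 2, selenium 2 or selenium 5, 170 without control 6), 0 to 4 speckle genes and 3 to 6 list genes. With the replicate number as a block the counts were 3, 0 and 1. Deviations of same-numbered mice correlated between -0.136 and 0.107, and 1 of the 12 libraries correlated best with its own number. Such correlations cannot show whether the mice were paired by design, and the main fit treated them as unpaired. The median correlation between the speckle genes was 0.61 with a filter of 5 TPM, which drops 3 of the 10, and 0.71 to 0.79 leaving out each library. Of other named genes, Clk1, Clk4 and Malat1 lost their calls with no filter, with the block, with 2 clock components and without control 2 and selenium 2, with log2 differences of -2.03 to -1.68 for Malat1. Clk4 also lost its call with quantile normalization and with the first clock component. Srsf5 kept its call in all 14 such alternatives. Other named genes gained a call. Without mitochondrial-encoded genes, Clasrp, Prpf38b, Neat1, Hnrnpdl, Srsf11 and Lgals4 were called lower. Without control 6, Clasrp and Lgals4 were called lower and Snrpb higher. Small differences of partner genes reversed. Cdk11b came to 0.012 with median-of-ratios scaling, to 0.0091 with quantile normalization and to 0.0013 without control 2 and selenium 2, and ran from -0.0565 to 0.0852 leaving out each library. Luc7l came to -0.0581 without mitochondrial-encoded genes, -0.0437 with 2 clock components and -0.0335 without control 2 and selenium 2, and ran from -0.0701 to 0.137. Srrm1 came to -0.0216 without mitochondrial-encoded genes and -0.15 with 2 clock components, and ran from -0.069 to 0.196. Dbp came to -0.61 with the first clock component and -0.12 with 2, and ran from -0.45 to 0.75. The cause of these changes was not tested. Without counts, the counting error of genes at low TPM, such as Paxbp1, is unknown.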
